A study of Homo sapiens with 12 samples.

Results

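The Ang change of each miRNA was compared between exosomes and the cells that released them, in all 12 libraries of the series: 4 groups of 3, taken from the sample titles. Con and Ang each had a group of whole AC16 cells and a group of their exosomes. AC16 is an established human cardiomyocyte line, and every group came from it. Ang files carry AngII in their headers, with no fuller name, and neither its dose nor its duration is stated in the sources used here. The quantity throughout is the change from Con to Ang in exosomes less the same change in cells, per miRNA name on the log2 scale. It is called the difference below. It is above 0 where the change in exosomes was the more positive one, whichever compartment held the higher level. Whether replicates 1 to 3 were grown as separate cultures is not stated, and p-values cover no more than the spread among these libraries, which may be technical.

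A mature miRNA is a short RNA cut from a hairpin precursor, which can yield a 5p arm and a 3p arm. It guides a silencing complex to messenger RNAs, mainly through its seed, the bases 2 to 8 from its 5′ end. Exosomes are small vesicles that cells release with a selection of their RNA. RNA-binding proteins that recognise short motifs are described as taking part in that selection, so the miRNA content of vesicles and of their parent cells need not move together. The study's stated aim concerned exosomal miRNAs regulated in hypertrophic heart muscle cells and RNA-binding proteins that could recognise them; the comparison asks whether an exosome change is shared by the cells.

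The sequences below belong to the names on which the results turn. They were taken from RefSeq (GRCh38.p14), are written 5′ to 3′, and have the seed in capitals. The first 5 rose in exosomes and fell in cells.
miR-519c-3p: aAAGUGCAucuuuuuagaggau
miR-3614-3p: uAGCCUUCagaucuugguguuuu
miR-510-3p: aUUGAAACcucuaagagugga
miR-362-5p: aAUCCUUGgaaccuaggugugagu
miR-8064: aGCACACUgagcgagcggac
The next 3 had the lowest differences among calls that held with every library left out in turn, and miR-3922-5p changed in opposite directions in the 2 compartments.
miR-450a-2-3p: aUUGGGGAcauuuugcauucau
miR-4699-3p: aAUUUACUcugcaaucuucucc
miR-1285-3p: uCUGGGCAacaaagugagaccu
miR-3922-5p: uCAAGGCCagaggucccacagca
The pair of miR-320 members and the pair of miR-27 members share a seed within each pair, and the arms of miR-382 come from a single hairpin.
miR-320c: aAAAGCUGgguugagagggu
miR-320d: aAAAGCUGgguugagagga
miR-27a-3p: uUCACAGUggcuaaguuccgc
miR-27b-3p: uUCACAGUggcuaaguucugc
miR-382-5p: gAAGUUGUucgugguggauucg
miR-382-3p: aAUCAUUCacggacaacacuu

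Each file gives, for every mature miRNA name, the raw number of unique molecular identifiers (UMIs). Cell libraries held 413513 to 528844 UMIs and exosome libraries 697049 to 1029883. Levels are given in CPM, the count scaled to a library total of 1e+06. Cells were extracted with the miRNeasy Micro kit and exosomes with the exoRNeasy Maxi kit, so compartment and kit cannot be told apart, although each kit served Con and Ang alike. Exosomes Con replicate 1 stood apart, with a chi-square, divided by its degrees of freedom, of 8.04 and 13.05 against the other Con exosome libraries and of 2.16 between those. Cells Ang replicate 2 did so less, at 5.0 and 5.44 against 2.25. Muscle miRNAs, which define heart and skeletal muscle, were scarce: the 13 listed names, among them miR-486-5p, which blood cells also carry, summed to between 0.0558% and 0.0566% of UMIs in cells Con and none was at 0 in every library.

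Of 1835 names tested, 278 had a difference past the threshold (edgeR quasi-likelihood test over all 12 libraries, Benjamini-Hochberg adjusted p below 0.05), or 15.1%. The difference was above 0 for 183 names, 9.97% of those tested, and below 0 for 95, or 5.18%. It was at least 2-fold for 60 and 47 of them. Most calls had a change in exosomes and none that passed in cells: for 135 of the 183 the exosome change alone passed, for 13 the cell change alone, for 22 both in opposite directions, for 5 both in the same direction and for 8 neither. Of the 95, the corresponding counts were 73, 9, 4, 2 and 7. The numbers that passed within each compartment in the same fit were 409 in exosomes (22.3%), 248 higher (13.5%) and 161 lower (8.77%), and 94 in cells (5.12%), 29 higher (1.58%) and 65 lower (3.54%). The count in cells was 24 without cells Con replicate 3, 38 without cells Con replicate 2, 54 without cells Con replicate 1, and 60 and 61 without cells Ang replicates 2 and 3. In bulk libraries fewer cells or vesicles of a kind and less RNA in each cannot be told apart, and each value is a share of its library.

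How many names lay on each side depended on the scaling. With RLE size factors 250 were higher and 77 lower, with library totals 93 and 222, and with TMM factors computed separately in cells and in exosomes 126 and 152. DESeq2, with its own size factors, gave 238 and 64. The median difference of all names was 0.05 on the log2 scale with TMM over the 12 libraries, 0.16 with RLE, -0.26 with library totals and -0.14 with TMM within compartments. Calls that kept their direction and stayed past the threshold under all 3 other scalings numbered 93 of the 183 higher and 77 of the 95 lower names. Without exosomes Con replicate 1 and cells Ang replicate 2 together, 154 names were higher and 96 lower, and 146 and 77 of the original calls remained. Both are the libraries that stood apart from their groups in these same data. Leaving them out narrows the spread, so p-values without them are a description and no separate support.

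**Figure D1:**
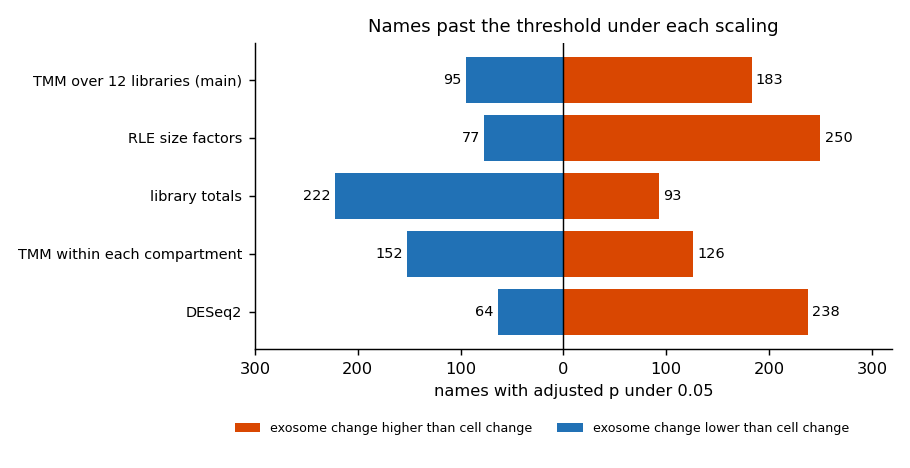
Number of miRNA names whose Ang change differed between exosomes and cells (adjusted p below 0.05), to the right where the exosome change was the higher and to the left where it was the lower, under 5 analyses. The split was 93 higher and 222 lower with library totals, 250 and 77 with RLE size factors and 238 and 64 with DESeq2, so the balance of sides is not fixed by these data.

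Across the 1093 names with a mean of at least 10 CPM in every group, the exosome and the cell change had a Pearson r of -0.094 and a Spearman rho of -0.028. These describe names within 1 set of libraries and carry no test; names are not independent replicates. The signs were the same for 517 of them, or 47.3%. The median size of the change, without its sign, was 0.324 in exosomes and 0.181 in cells on the log2 scale, and 55 names changed at least 2-fold in exosomes against 11 in cells. Among the 373 names with at least 100 CPM in every group the median sizes were 0.336 and 0.150. For these the median spread between replicates was no larger in exosomes: the median SD of log2 CPM within a group was 0.072 for Con and 0.081 for Ang exosomes, while cells had 0.090 and 0.109. A median does not show the unevenness of exosomes Con replicate 1, whose chi-square per degree of freedom was 8.04 and 13.05 within its group. Some abundant names varied widely there, such as miR-16-5p at 2694, 9752 and 11811 CPM in exosomes Con. With every library thinned to the smallest total, 161 names were higher and 107 lower in exosomes against 11 and 54 in cells.

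**Figure D2:**
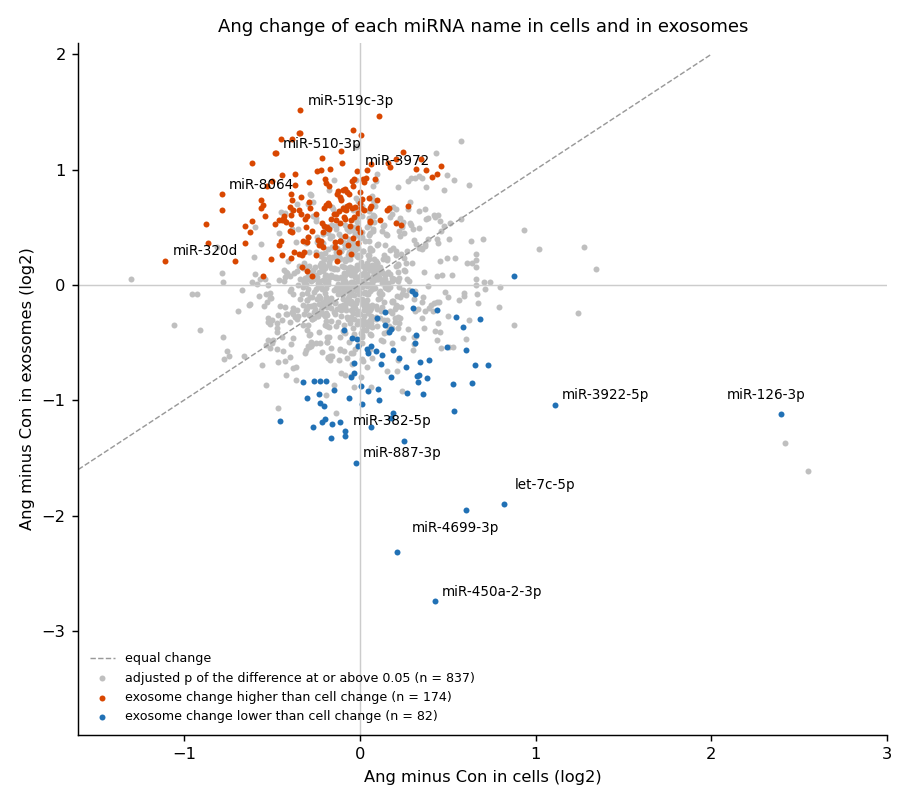
Ang minus Con change of each miRNA name in cells (x axis, log2) and in exosomes (y axis, log2) for the 1093 names with a mean of at least 10 CPM in every group; each point is a name, coloured by the test of the difference, and the dashed line marks equal change. The cloud is taller than it is wide, and the 174 names above and 82 names below the line that passed lie mostly along the vertical axis.

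Several of the largest positive differences belonged to names that were common in cells and scarcer in exosomes under Con. miR-519c-3p, a member of the large microRNA cluster on chromosome 19 that only primates have (hairpin at chr19:53686469-53686555, plus strand, GRCh38.p14), stood at 2481, 2676 and 2662 CPM in cells Con and 2153, 2133 and 2205 in cells Ang. In exosomes it stood at 43.7, 49.5 and 52.5 CPM in Con and 132, 118 and 103 in Ang. The groups did not overlap in either compartment and moved apart from each other. On the TMM scale of the fit, which allows for the few names that dominate exosome libraries and so differs from a ratio of CPM, its exosome change was 2.86-fold up and its cell change 1.26-fold down, which makes the difference 1.85 with an SE of 0.145 (edgeR adjusted p = 1.56e-07, 3 libraries in each group). Its level in exosomes Ang was still far below that in the cells.

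miR-3614-3p, whose hairpin overlaps an exon of TRIM25, a ubiquitin ligase of antiviral signalling (chr17:56891270-56891355, minus strand), showed the same opposition at higher exosome levels. It stood at 3892, 4477 and 4559 CPM in cells Con and 3401, 3763 and 3506 in cells Ang, and at 1133, 1021 and 1053 CPM in exosomes Con and 2458, 2040 and 2230 in exosomes Ang. Every Ang library lay below every Con library in cells and above every Con library in exosomes. The difference was 1.66 (SE 0.124, adjusted p = 1.08e-07), from 1.32 in exosomes and -0.34 in cells. The other arm, miR-3614-5p, had a difference of 0.24 that did not pass (adjusted p = 0.851).

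miR-510-3p, of the miR-506 to miR-514 cluster on the X chromosome (chrX:147272335-147272408, minus strand), was among the 5 most abundant names in cells. It stood at 21730, 22891 and 24401 CPM in cells Con and 17443, 19172 and 15223 in cells Ang. In exosomes it stood at 1373, 1308 and 1298 CPM in Con and 2468, 2452 and 2461 in Ang. The cell groups and the exosome groups were each separate, in opposite directions. The difference was 1.62 (SE 0.120, adjusted p = 1.08e-07). Of the other members of the cluster, miR-509-3p had a difference of 0.74 (edgeR adjusted p = 0.000435) and miR-506-3p one of -0.98 (edgeR adjusted p = 0.0347), a call that ended with RLE size factors and without any of 6 libraries in turn.

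miR-8064, in an intron of STIMATE (chr3:52846463-52846552, minus strand), changed by nearly the same fold in opposite directions on the TMM scale of the fit. The folds differ from ratios of the CPM given here. In cells it fell 1.72-fold, from 647, 758 and 755 CPM to 451, 447 and 415. In exosomes, where it was more abundant, it rose 1.73-fold, from 3768, 3248 and 3230 CPM to 5208, 4659 and 5003. No library of Con reached into the range of Ang in either compartment. The difference was 1.57 (SE 0.130, adjusted p = 3.08e-07). miR-362-5p, in an intron of the chloride transporter gene CLCN5 (chrX:50008964-50009028, plus strand), rose 2.21-fold in exosomes (218 ± 30.5 to 407 ± 44.05 CPM, SD, n = 3) and fell 1.4-fold in cells (2802 ± 238 to 2101 ± 46.7), a difference of 1.63 (SE 0.150).

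Other names with large positive differences rose in exosomes, and their cell change, also below 0, did not pass. They were miR-6824-5p in an exon of the anion exchanger gene SLC26A6 (difference 1.72, SE 0.376), miR-10525-3p in an intron of GTF2IRD1 (1.67, SE 0.224), miR-5581-3p in an intron of MEAF6 (1.66, SE 0.213), miR-6816-3p in an intron of TRMT2A (1.65, SE 0.184) and miR-938 in an intron of the actin-associated gene SVIL (1.5, SE 0.325). With libraries thinned to the smallest total the calls of miR-6824-5p (1.45, edgeR adjusted p = 0.0708) and miR-938 (1.15, edgeR adjusted p = 0.137) ended. miR-938 stood at 7.77 to 21.5 CPM in exosomes, and miR-6824-5p had only 4 to 14 counts in each cell library. miR-10525-3p went from 208, 217 and 196 CPM in exosomes Con to 379, 340 and 369 in exosomes Ang, whereas cells had 159, 169 and 200 in Con and 112, 160 and 91.6 in Ang. Its exosome groups were apart and its cell groups overlapped. miR-3170 in an intron of FARP1 (difference 1.43) and miR-3194-5p in an intron of NFATC2, a transcription factor of calcium signalling (1.4), were the reverse case: both fell in cells, 1.72-fold and 1.83-fold, and their exosome changes of 0.65 and 0.53 did not pass. At 9.27 to 27.3 CPM, exosome levels of this pair were also close to the limits of counting, where 3 counts come to between 2.91 and 4.30 CPM in an exosome library, and thinning ended the call of miR-3170 (1.21, edgeR adjusted p = 0.0696).

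**Figure D3:**
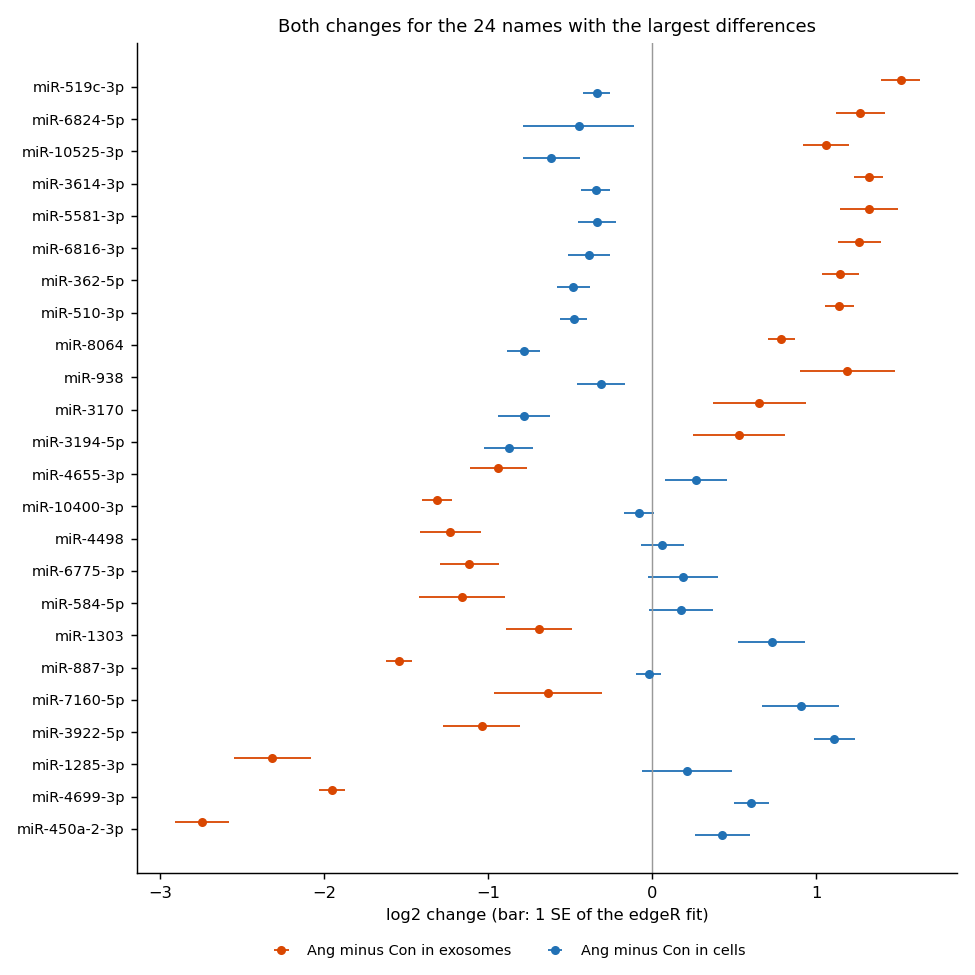
Ang minus Con change (log2, point, with 1 SE of the edgeR fit as the bar) in exosomes and in cells for the 24 names with the largest differences whose call held with each of the 12 libraries left out. The 12 upper names rose in exosomes or fell in cells, and the 12 lower names had exosome changes below 0, which passed for all but miR-7160-5p, with cell changes above or near 0.

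On the other side, miR-450a-2-3p had the most negative difference among calls that held with each library left out. It belongs to an X-chromosome cluster with miR-424, miR-503 and miR-542. It fell in exosomes from 167, 194 and 160 CPM in Con to 23.0, 17.8 and 24.4 in Ang. In cells it stood at 73.7, 93.0 and 68.4 CPM in Con and 116, 106 and 111 in Ang, where the change of 0.43 did not pass (adjusted p = 0.185). Under Con the exosome libraries lay above the cell libraries, and under Ang below them. The difference was -3.17 (SE 0.239, adjusted p = 1.08e-07). Of the 10 tested members of this cluster, miR-450a-2-3p included, 1 was higher and 1 lower, against 9.97% and 5.18% of all names. With so few members, these counts cannot show whether the cluster departs from all names. The higher one was miR-424-5p (difference 1.41, edgeR adjusted p = 0.0405), at most 12.5 CPM in any exosome library. The call of miR-424-5p ended without any of 8 libraries in turn, with library totals and with TMM within compartments.

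miR-4699-3p, in an intron of the acyl-CoA synthetase gene ACSS3 (chr12:81158388-81158461, plus strand), had the lowest p of all names. It fell 3.86-fold in exosomes, from 1908, 1819 and 1786 CPM to 379, 399 and 421, and rose 1.52-fold in cells, from 112, 103 and 101 CPM to 169, 164 and 172. Neither pair of groups overlapped. The difference was -2.55 (SE 0.133, adjusted p = 1.65e-09). Exosomes held the higher level under Con and under Ang alike.

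miR-3922-5p changed about equally in opposite directions on the TMM scale of the fit. It rose 2.16-fold in cells, from 163, 161 and 141 CPM to 385, 339 and 331, and fell 2.05-fold in exosomes, from 28.2, 24.8 and 23.7 CPM to 8.61, 12.5 and 9.78. Its exosome values in Ang rest on few counts, but no library of either group overlapped the other. The difference was -2.15 (SE 0.264, adjusted p = 2.14e-05). miR-1303 had the same pattern at a lower size (1.66-fold up in cells and 1.61-fold down in exosomes, difference -1.42), although the cell change stood at an adjusted p of 0.049 in the edgeR fit.

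Falls in exosomes that cells did not share in size included abundant names. miR-887-3p stood at 14094, 14029 and 14491 CPM in exosomes Con and 3911, 4143 and 4237 in exosomes Ang, but at 2844, 3089 and 3122 in cells Con and 3374, 3134 and 2822 in cells Ang. The exosome groups were widely apart and the cell groups overlapped. Its difference was -1.52 (SE 0.110, adjusted p = 1.08e-07), nearly all of it from the exosome change of -1.54. miR-10400-3p (difference -1.23) went from 2522 ± 150 to 854 ± 15.6 CPM in exosomes and had 1623 ± 66.4 and 1606 ± 198 CPM in cells. miR-1285-3p, which 2 hairpins can yield so that its source is uncertain, fell 4.97-fold in exosomes (difference -2.53, SE 0.370). It rests on few counts, 9, 11 and 8 in exosomes Ang and 11 to 17 in the cell libraries. miR-584-5p in an intron of SH3TC2, miR-6775-3p in an intron of the amino acid transporter gene SLC7A5, miR-4498 in an intron of the translation factor gene GCN1 and miR-4655-3p in an intron of the spindle checkpoint gene MAD1L1 had differences from -1.33 to -1.21, and miR-7160-5p, whose cell rise alone passed, one of -1.54. Thinning to the smallest total ended the calls of miR-6775-3p, miR-4498, miR-4655-3p, miR-7160-5p and miR-1303 (edgeR adjusted p from 0.0522 to 0.0936).

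**Figure D4:**
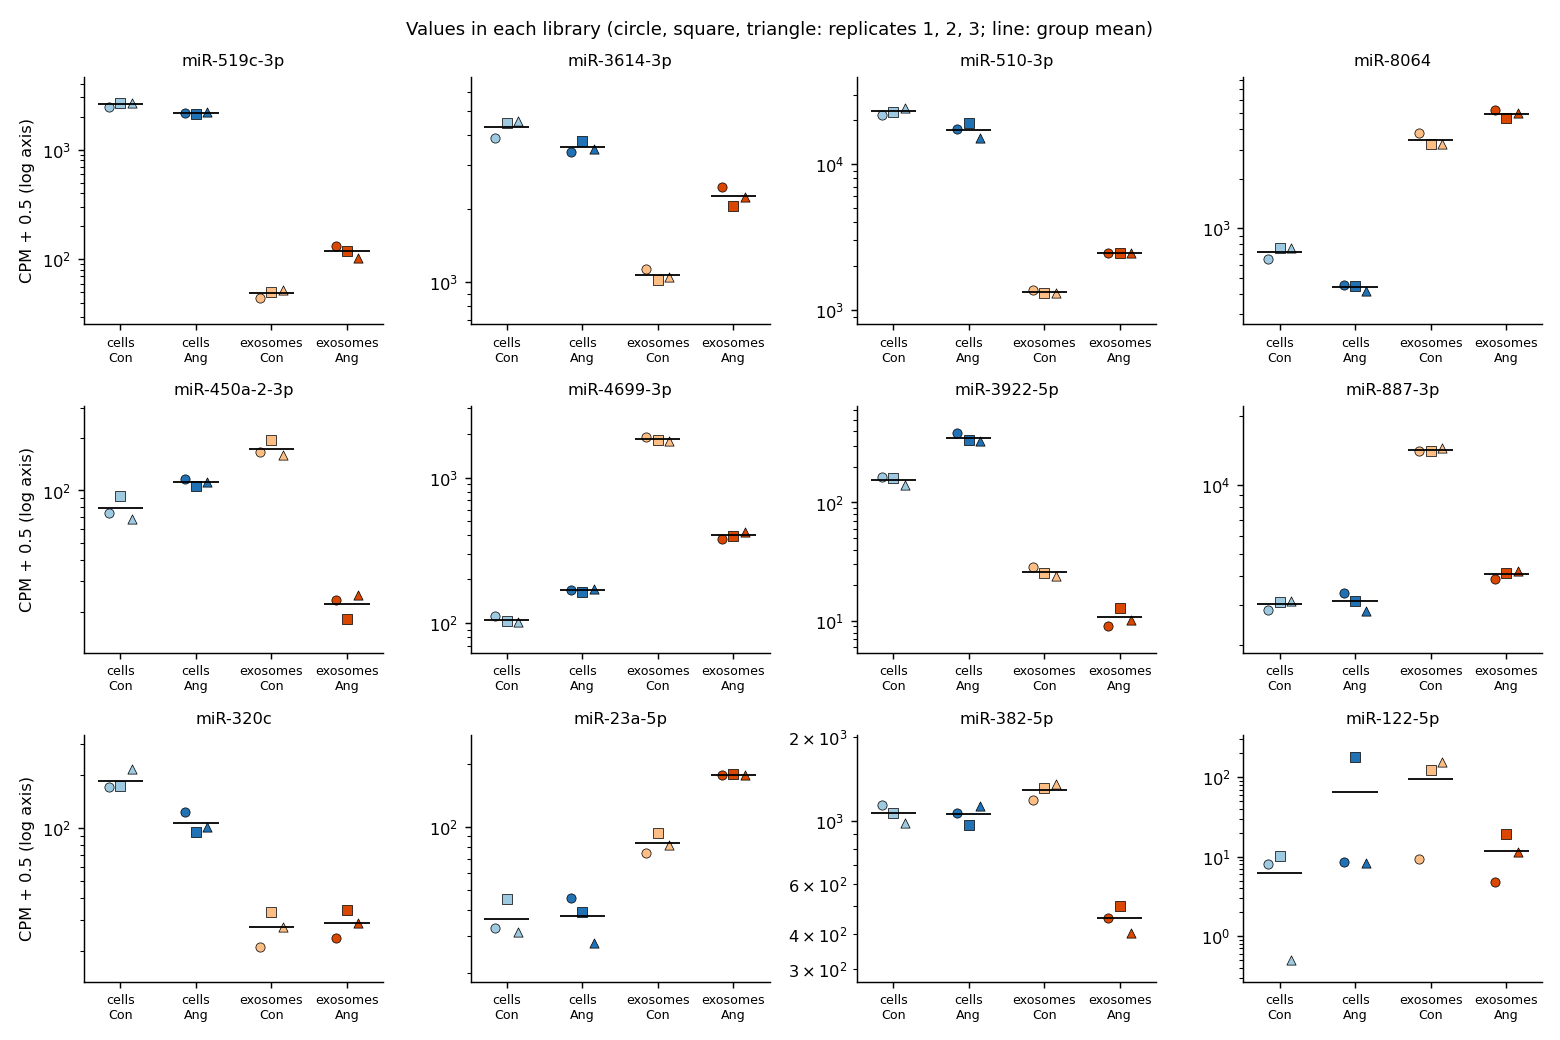
CPM of 12 names in each of the 12 libraries (y axis, log scale, with 0.5 added; points are libraries, with a shape per replicate number, and lines are group means). miR-519c-3p, miR-3614-3p, miR-510-3p and miR-8064 move down in cells and up in exosomes, whereas for miR-122-5p a single library, cells Ang replicate 2 at 181 CPM, sets the mean of its group.

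Of the 5 most abundant names in each group, miR-510-3p is given above. miR-3972, in an intron of PADI3, rose 1.99-fold in exosomes, where all Ang libraries were above all Con libraries, and stayed between 7870 and 8876 CPM in cells, a difference of 1.0 (SE 0.094, adjusted p = 1.35e-06). For miR-552-3p, which also led exosomes, the difference was 0.57 (SE 0.159, adjusted p = 0.0312), and its cell change, at 56.7 to 102 CPM, was 0.46 and did not pass (edgeR adjusted p = 0.174). Its call ended with library totals, with TMM within compartments, with limma-voom, after thinning and without any of 5 libraries in turn. miR-3944-5p had -0.39 (adjusted p = 0.0428), a call that ended with RLE size factors, DESeq2, limma-voom, after thinning and without any of 5 libraries. let-7a-5p (0.07, SE 0.269), miR-125b-5p (0.19, SE 0.219) and miR-21-5p (0.52, SE 0.261), which led cells, did not pass, and the sign turned below 0 for let-7a-5p and miR-125b-5p with library totals and with TMM within compartments. miR-16-5p had -0.90 (SE 0.471, adjusted p = 0.255), and -1.17 (adjusted p = 3.17e-05) without exosomes Con replicate 1 and cells Ang replicate 2. Exosomes Con replicate 1 was the uneven library, at 2694 CPM against 9752 and 11811, so the lower p is no separate support.

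None of the 7 tested muscle miRNAs passed, with a median difference of -0.01 against 0.05 over all names (0.08 for the list with RLE size factors). With RLE size factors 1 was higher and with library totals 1 was lower. Of miRNAs described as promoting cardiac hypertrophy, 2 of 18 had a difference above 0 and none below, against 9.97% and 5.18% of all names. miR-214-3p, a member of this list and of the fibrosis list (1 of 14 higher), fell in cells from 314, 312 and 361 CPM to 249, 247 and 265 and rose in exosomes from 175, 169 and 178 CPM to 211, 203 and 235. All 4 groups were apart within their compartments, and the difference was 1.01 (SE 0.154, adjusted p = 0.000174). miR-27b-3p had 0.70 (adjusted p = 0.00504), and its call ended with library totals. Of those described as opposing hypertrophy, 1 of 13 was lower, miR-9-5p (-1.35, adjusted p = 0.0279), a neuronal miRNA as well, where it was the 1 of 7 listed. Its call ended without any of 5 libraries in turn.

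Of the miR-23, miR-27 and miR-24 clusters, known in muscle and vessel growth, 3 of 11 members were higher (27.3%) and 1 lower (9.1%), against 9.97% and 5.18% of all names. miR-23a-5p rose in exosomes from 74.8, 93.4 and 81.3 CPM to 176, 179 and 177 and stayed between 27.3 and 44.9 CPM in cells, where the groups overlapped. Its difference was 1.39 (SE 0.280, adjusted p = 0.00202). miR-27a-3p had 0.85, a call that ended with library totals, with TMM within compartments and without any of 4 libraries in turn, and its other arm miR-27a-5p had -1.78, at no more than 11.3 CPM in any exosome library, a call that ended under 16 of the alternatives, among them DESeq2, limma-voom and 8 left-out libraries. With library totals 1 member was higher and 1 lower. Of the inflammation and hypoxia list 1 of 7 was higher, miR-210-3p, the hypoxia miRNA (0.94, adjusted p = 0.0109); it ended with library totals, with TMM within compartments, after thinning and without exosomes Ang replicate 3 or exosomes Con replicate 2.

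The miR-320 family, in which miR-320a is known to be made without the nuclease Drosha, had 2 of 5 members higher (40%, against 9.97% of all names) and none lower (against 5.18%), and these counts were the same under the 3 other scalings. Here the cells changed. miR-320c fell in cells from 170, 172 and 215 CPM to 122, 94.3 and 101 and stood at 20.4, 32.6 and 26.8 CPM in exosomes Con and 23.0, 33.4 and 28.4 in Ang. Its cell groups were apart and its exosome groups overlapped. The differences were 1.23 (SE 0.278, adjusted p = 0.00471) for miR-320c and 1.32 (SE 0.326, adjusted p = 0.00949) for miR-320d. The pair share a seed and nearly all of their sequence, so reads could have been split between them, and with libraries thinned to the smallest total the value of miR-320d turned to -0.19 (adjusted p = 0.885).

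Of the imprinted chromosome 14 cluster, 11 of 87 members were higher (12.6%) and 3 lower (3.4%), shares near those of all names; with RLE size factors the counts were 17 and 2, with library totals 2 and 8, and with TMM within compartments 4 and 4. miR-654-5p (0.70, SE 0.108, adjusted p = 0.000179) and miR-433-5p (1.03) kept their call under each scaling. miR-382-5p fell in exosomes from 1190, 1317 and 1361 CPM to 455, 501 and 401 while cells held 986 to 1146 CPM in Con and 970 to 1131 in Ang, a difference of -1.18 (SE 0.132, adjusted p = 8.67e-06). Of the chromosome 19 cluster 2 of 19 were higher (10.5%), miR-519c-3p and miR-518b (1.24), and 2 lower (10.5%), miR-519d-3p (-0.64) and miR-518e-3p (-1.38); the call of miR-518b ended with library totals and that of miR-518e-3p without any of 8 libraries in turn.

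Mirtrons, spliced introns that bypass Drosha, lay on both sides. Of 20 classic ones 4 were higher (20%) and 3 lower (15%), against 9.97% and 5.18% of all names. miR-1227-3p stood at 0.71 and miR-1229-3p at -1.12. The counts of classic ones were 6 and 2 with RLE size factors, 1 and 3 with library totals and 2 and 3 with TMM within compartments. Of the mirtron-like series miR-6715 to miR-6895, 6 of 142 3p arms were higher and 6 lower, 4.2% each way, and of 139 5p arms 16 were higher (11.5%) and 7 lower (5.0%), the latter near the shares of all names. With library totals these became 4 and 20 for 3p arms and 8 and 18 for 5p arms. miR-6805-3p, whose hairpin overlaps an exon of RPL28, had the same level in cells Con and Ang (758 ± 74.7 and 799 ± 121 CPM) and rose from 1293 ± 37.1 to 2670 ± 207 CPM in exosomes, a difference of 1.29 (SE 0.154). miR-6786-5p in an intron of HGS, an endosomal sorting gene, rose in exosomes from 729, 709 and 664 CPM to 841, 895 and 934 and fell in cells from 605, 641 and 587 CPM to 512, 433 and 380, a difference of 1.13 (adjusted p = 4.52e-05).

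Entries that overlap fragments of other RNAs had 5 of 20 higher (25%) and 3 lower (15%), against 9.97% and 5.18% of all names. The lower names, miR-3960 (-0.92), miR-3648 (-0.97) and miR-4488 (-0.60), fell in exosomes and held under each scaling. Of the higher names miR-1273c (1.17) and miR-1273h-3p (1.31) held under each scaling, while those of miR-4516, miR-7704 and miR-10396a-5p did not hold under all 3 other scalings; with library totals 2 were higher and 6 lower. Of the miR-548 family 2 of 18 were higher (11.1%) and 1 lower (5.6%), near the shares of all names. miR-548as-5p had 0.85 and miR-548aw -1.17, calls that thinning ended, as it did that of miR-1227-3p, and the third, miR-548m, had 0 counts in every library of exosomes Con and 1 to 2 in each of exosomes Ang, at which no fold is given.

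Blood cell, liver and endothelial markers had some of the most negative fitted differences, and their values were uneven within groups. Of the blood list 1 of 6 was lower, miR-451a (-5.81, SE 1.78, adjusted p = 0.0356), of the liver list 1 of 4, miR-122-5p (-5.91, SE 1.74, adjusted p = 0.0292), and of 2 endothelial names miR-126-3p (-3.52, SE 1.09, adjusted p = 0.0365). miR-451a stood at 10.2, 218 and 3.90 CPM in cells Ang against 7.56, 5.81 and 7.07 in Con, and at 9.71, 92.3 and 128 in exosomes Con against 0, 23.0 and 6.85 in Ang. miR-122-5p stood at 8.15, 181 and 7.80 CPM in cells Ang and 8.74, 123 and 156 in exosomes Con. Cells Ang replicate 2 was high for both, and exosomes Con replicate 1 was low. Each of these 3 calls ended without cells Ang replicate 2 and with limma-voom, and in all without any of 7 libraries in turn for miR-122-5p and 8 for each of the others. Without that library and exosomes Con replicate 1 together, miR-451a had -3.07 (adjusted p = 0.0818), miR-122-5p -3.60 (adjusted p = 0.00775) and miR-126-3p -1.6 (adjusted p = 0.000288). These 2 libraries were the uneven ones in these same data. Adjusted p-values without both, here and for let-7c-5p below, are therefore a description and no separate support. The summed blood list ran from 0.218% to 0.242% of UMIs in cells Con, 0.210% to 0.701% in cells Ang, 0.0567% to 0.130% in exosomes Con and 0.0350% to 0.0659% in exosomes Ang, and no member of the 3 lists was at 0 in every library; their part in other results was not tested. let-7c-5p, the 1 of 9 let-7 members that passed, was uneven in the same way, at 873 CPM in cells Ang replicate 2 against 275 and 257, and had -2.72 (adjusted p = 0.0201), or -2.38 (adjusted p = 2.05e-08) without both libraries. Its call ended with limma-voom (adjusted p = 0.156), with edgeR's robust option (adjusted p = 0.139) and without cells Ang replicate 2, exosomes Ang replicate 1 or exosomes Con replicate 2 (edgeR adjusted p = 0.0712, 0.0633 and 0.0619). Of names often described in exosomes 1 of 15 was higher, miR-320c (6.7%, against 9.97% of all names), and 4 lower (26.7%, against 5.18%), the 3 markers and miR-423-5p (-1.6, edgeR adjusted p = 0.0452), whose call did not hold with every library left out.

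No member of the epithelial, miR-17, miR-29, miR-30, miR-34 or miR-221 and miR-222 lists passed with the main scaling. The lists had 2, 10, 3, 5, 5 and 4 tested members in that order, and 15.1% of all tested names passed. At these sizes a count of none is no result about the members. With RLE size factors 1 miR-17 and 1 miR-29 member were higher, and with library totals 1 epithelial member was lower. Their medians were -0.43, 0.02, 0.51, 0.31, -0.17 and 0.24 in that order; those of miR-17, miR-30 and miR-221 and miR-222 were at or below 0 with library totals, and that of miR-17 also with TMM within compartments.

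The 2 arms of a hairpin are made together. Both arms were tested for 469 hairpins. For 115 of them 1 arm passed and for 10 both did, of which 4 went the same way and 6 opposite ways. miR-382-5p stood at -1.18 and miR-382-3p at 1.41, miR-27a at -1.78 and 0.85, miR-7113 at -1.12 and 1.16, miR-5585 at 1.07 and -1.39, miR-1910 at 0.63 and -0.73, and miR-6836 at -0.51 and 0.42, the 5p arm first. miR-1910 was the 1 hairpin of these 6 for which both calls held with each library left out, and its 5p call did not hold under all 3 other scalings. In the other 5 hairpins the call of miR-382-3p, of both miR-27a arms, of miR-7113-5p, of miR-5585-3p and of miR-6836-3p did not hold with each library left out; that of miR-382-3p, at 18.8 CPM or less in exosomes, ended without any of 10. Whether the arms of a hairpin differ from each other was not tested. Of all tested names 15.1% passed, 9.97% higher and 5.18% lower. Whether the 10 hairpins, or their split by direction, depart from what unlinked arms would give was not tested. Over the 469 hairpins the arms had a Spearman rho of 0.110 and a Pearson r of 0.112, a description across hairpins without a test.

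**Figure D5:**
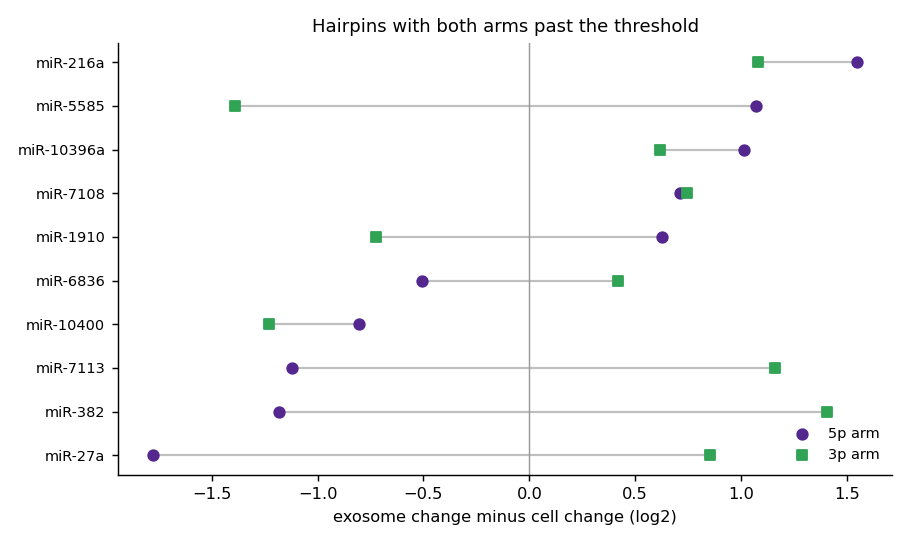
Exosome change minus cell change (x axis, log2) of the 5p arm (circle) and 3p arm (square) of the 10 hairpins for which both arms passed. In 6 hairpins the arms lie on opposite sides of 0, and in 4 on the same side.

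Shares of short motifs were compared as a description. Mature sequences matched 2367 of 2656 names and 1644 of the tested ones. The motif GGAG, described for export by the protein hnRNPA2B1, occurred in 23.0% of 165 higher names with a sequence, 17.6% of 85 lower names and 17.8% of all tested names. GGCU, the core of the motif described for SYNCRIP, occurred in 13.9%, 20% and 13.7%, CCCU in 13.9%, 21.2% and 13.7%, and CAGU in 12.1%, 5.9% and 9.9%. AUUUA occurred in 0 higher, 2 lower and 9 tested names. Motifs were searched as written on the mature strand only, each counted once per name, and a match is a description of letters, not of binding. The median GC content was 59.1% for higher and for lower names and 54.5% for all tested.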

How the data were processed

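Small RNA of AC16 cells and exosomes was sequenced with the QIAseq miRNA kit, per the labels' protocols. The deposited values are raw counts of UMIs per mature miRNA name, 1 file per library. Reads were processed with cutadapt and GRCh38, per the submitters' processing notes; the sources used here name no aligner or annotation. Names absent from the exosome files, 76 of 2656, were counted as 0. Counts were tested with edgeR 4.0.16 (R 4.3.3, filterByExpr, TMM, quasi-likelihood, Benjamini-Hochberg threshold 0.05) in 1 fit over 12 libraries. The fit was also run on simulated counts with changes in exosomes only and no uneven library. That run therefore does not bear on uneven libraries or on changes in cells. The alternatives used limma 3.58.1, DESeq2 1.42.0, other scalings and filters, thinning, the replicate block and each library left out. Named were the 12 largest differences each way, at 10 CPM or more in both compartments, that held with each library left out, 3 further ones each way that did not, the 5 most abundant names per group and up to 4 members per list, with arms and seed partners of these. Other names were chosen after their values were seen. Members and lists were chosen with earlier results of these data known. Sequences and coordinates are from RefSeq (GRCh38.p14), host genes from GENCODE 29.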

Additional observations from a re-analysis of the deposited data

Results flagged for a closer look

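Each result below had a test of the difference between the exosome change and the cell change that passed (edgeR, adjusted p below 0.05), and the log2 difference follows each name. Both changes passed in opposite directions, up in exosomes and down in cells, for miR-519c-3p (1.85), miR-3614-3p (1.66), miR-362-5p (1.63), miR-510-3p (1.62), miR-8064 (1.57), miR-214-3p (1.01), miR-127-3p (0.59), miR-6786-5p (1.13) and miR-6885-5p (1.01). The reverse, down in exosomes and up in cells, held for miR-4699-3p (-2.56), miR-3922-5p (-2.15) and miR-1303 (-1.42). For miR-127-3p the exosome groups overlapped, at 830, 947 and 1007 CPM in Con and 937, 995 and 875 in Ang. Its rise in exosomes passed on the TMM scale of the fit, and its call of the difference ended with library totals.

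The cell change alone passed, as a fall, for miR-3170 (1.43), miR-3194-5p (1.4), miR-320c (1.23) and miR-320d (1.32), and as a rise for miR-7160-5p (-1.54), miR-506-3p (-0.97) and miR-548aw (-1.17). Both changes passed upwards for miR-1238-5p (0.52), a call that ended with library totals and with TMM within compartments. Neither change passed by itself for miR-451a (-5.81), miR-126-3p (-3.52) and miR-9-5p (-1.35).

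The exosome change alone passed, as a rise, for miR-6824-5p (1.72), miR-10525-3p (1.67), miR-5581-3p (1.66), miR-6816-3p (1.65), miR-938 (1.5), miR-216a-5p (1.55), miR-424-5p (1.41), miR-382-3p (1.41), miR-552-3p (0.57), miR-3972 (1.0), miR-27b-3p (0.70), miR-1273c (1.17), miR-1273h-3p (1.31), miR-23a-5p (1.39), miR-27a-3p (0.85), miR-509-3p (0.74), miR-210-3p (0.94), miR-654-5p (0.70), miR-370-3p (0.60), miR-518b (1.24), miR-1227-3p (0.71), miR-1234-3p (0.73), miR-6805-3p (1.29), miR-6877-3p (1.18), miR-6884-3p (0.63), miR-6893-5p (0.65), miR-6789-5p (0.70) and miR-548as-5p (0.85). It alone passed, as a fall, for miR-450a-2-3p (-3.17), miR-1285-3p (-2.53), miR-887-3p (-1.52), miR-584-5p (-1.33), miR-6775-3p (-1.30), miR-4498 (-1.29), miR-10400-3p (-1.23), miR-4655-3p (-1.21), miR-122-5p (-5.91), miR-3944-5p (-0.39), miR-3960 (-0.92), miR-3648 (-0.97), let-7c-5p (-2.72), miR-27a-5p (-1.78), miR-382-5p (-1.18), miR-519d-3p (-0.65), miR-518e-3p (-1.38) and miR-1229-3p (-1.12). The call of miR-216a-5p, at 4.5 to 15.7 CPM in exosomes, ended after thinning and without exosomes Con replicate 2. Those of miR-370-3p, miR-6884-3p and miR-1234-3p ended with library totals. The exosome groups of miR-370-3p and miR-6884-3p overlapped.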

How the results depend on the processing

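All 25 alternatives were run. The number of names with a higher difference, 183, was 93 with library totals. The number lower, 95, was 152 with TMM within compartments, 222 with library totals and 57 with libraries thinned to the smallest total. In exosomes the 409 calls were 268 after thinning. The 248 higher were 141 with library totals and 161 after thinning, and the 161 lower were 106 with DESeq2, 317 with library totals and 107 after thinning. In cells the 29 higher were 17 with no count filter and 11 after thinning, and the 65 lower were 42 with library totals. Leaving out each library in turn gave 218 to 286 calls of the difference (139 to 194 higher, 70 to 111 lower), 334 to 408 in exosomes (209 to 259 and 121 to 162) and 24 to 105 in cells (7 to 37 and 17 to 68). The 24 came without cells Con replicate 3; without cells Con replicate 1 or 2 or cells Ang replicate 2 or 3 there were 54, 38, 60 and 61.

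The sign turned for let-7a-5p, which had not passed, to -0.115 with TMM within compartments, -0.252 with library totals, -0.238 without both exosomes Con replicate 1 and cells Ang replicate 2, and to -0.00357, -0.09 and -0.236 without cells Con replicate 1, exosomes Ang replicate 2 or exosomes Con replicate 1; over all left-out libraries it reached 0.348. For miR-125b-5p, which had not passed either, the same settings gave -0.000247, -0.135 and -0.0706, and -0.0826 without exosomes Con replicate 1, with up to 0.399 without another library. miR-320d turned to -0.189 after thinning. The cause was not tested. Of the other alternatives for single names, 177 ended a call, 11 made one and 1709 did neither. With the replicate block over all 4 groups 252 names passed, 166 higher and 86 lower, and the block within compartments gave the same counts. Deviations of same-numbered libraries had correlations from -0.73 to 0.58. Of 6 Con libraries, 1 correlated best with the Ang library of its own number. With 3 libraries in each group, these values cannot show whether the libraries were paired. Depth limits names near 3 counts, which come to between 2.91 and 7.25 CPM.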

Other observations

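Names that share a seed did not always share a direction. For 10 seeds, 2 names passed. Both lay on the same side for 6 seeds and on opposite sides for 4. Of all tested names 9.97% were higher and 5.18% lower. Whether the split over seeds departs from that of unlinked names was not tested. miR-27a-3p and miR-27b-3p (0.85 and 0.70), miR-320c and miR-320d (1.23 and 1.32) and miR-3170 and miR-6855-5p (1.43 and 0.45) lay on the same side, whereas miR-1285-3p and miR-3187-5p (-2.53 and 0.75) and miR-6737-5p and miR-6819-5p (0.90 and -0.52) did not. The calls of miR-27a-3p, miR-6855-5p and miR-6737-5p held neither with each library left out nor under all 3 other scalings. The miR-27 pair and the miR-320 pair each share nearly all of their sequence, so reads could have been split within them.

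Neighbours within 10 kb of a hairpin were unlike it in places. The 5 tested neighbours of miR-362-5p in CLCN5 had differences from -2.06 (miR-502-3p) to 0.09 (miR-532-3p), and none passed (edgeR adjusted p from 0.306 to 0.893). miR-216a-3p, at 1.08, passed on the same side as its other arm miR-216a-5p.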
